A study of Rattus norvegicus with 2 samples.

Results

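Hsp90b1, Pdia6, Selenos and Syvn1 are 4 rat genes of the endoplasmic reticulum (ER), of 7803 genes with a usable identifier in the files. Hsp90b1 and Pdia6 encode proteins that fold other proteins in the ER lumen, and Selenos and Syvn1 encode parts of the machinery that removes misfolded proteins from the ER for degradation. The 4 genes were chosen from their measured difference between the libraries, the first pair for being higher in high phosphate and the second pair for being nearly level. That difference is therefore a description here and supports nothing. RNA was sequenced from H9c2 cells, a clonal myoblast line from embryonic rat heart. Both cultures were kept without serum for 12 h, at 0.9 mM phosphate in the control group and at 2.5 mM in the high phosphate group. The labels name no other agent in either group. Each phosphate level had 1 library, so there is no replicate spread, no error and no test for any value below.

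Values are FPKM, a gene's fragment count divided by its transcript length and by the library's mapped total, so levels of different genes are compared per length. The ratio used is log2 of (high phosphate FPKM + 1) over (control FPKM + 1), which makes differences between low values look smaller. Genes whose mean over both libraries reached 1 FPKM are called measured, and there were 4366 of them with a median log2 ratio of 0.00. The files list no read counts, so the depth behind each value is unknown. Of 14 cardiomyocyte markers written down 5 were listed, all under 1 FPKM in both libraries, with Myh7 and Ryr2 at 0. Of 6 listed skeletal myoblast markers, desmin (Des), a muscle intermediate filament, had 128.5 FPKM (control) and 153 FPKM (high phosphate). Myod1 had 6.11 and 1.59 FPKM, and the others were under 1 FPKM in both libraries. The line is described here as labelled, a cardiomyoblast, and not as a cardiomyocyte, and these markers do not settle what it is.

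Proteins that enter the ER are folded there by HSP70 and HSP90 chaperones, by disulfide isomerases and by lectins that read their sugars. Proteins that fail are drawn back across the ER membrane, marked with ubiquitin and destroyed by the proteasome, a route called ER-associated degradation (ERAD). When unfolded proteins build up, the sensors IRE1, PERK and ATF6 switch on the unfolded protein response, which raises both folding and ERAD genes through elements such as the ER stress response element (ERSE). Hsp90b1 encodes GRP94, the HSP90 of the ER lumen, which folds integrins and other secretory clients. Pdia6 encodes P5, a disulfide isomerase that works with the chaperone BiP and also acts on the sensor IRE1. Syvn1 encodes HRD1, the ubiquitin ligase at the core of an ERAD channel in the ER membrane. Selenos encodes selenoprotein S (VIMP), a membrane protein that brings the ATPase VCP to this channel.

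Because Hsp90b1 stands apart from Selenos and Syvn1 in ratio, the promoter letters of these 3 genes are shown to let the known elements be read in them. The 250 bases before the annotated transcription start come from RefSeq promoter windows of the assembly GRCr8, given 5′ to 3′ on the strand of the gene. These coordinates are on GRCr8 and not on Rnor_6.0, the build named for the deposited values. Capitals mark the fixed letters of the ERSE and every CCAAT or its reverse complement. The Hsp90b1 window lies on the minus strand at chr7:23012294-23012543, the Selenos window on the plus strand at chr1:129069990-129070239 and the Syvn1 window on the plus strand at chr1:212768658-212768907. The table held windows for 3 of the 4 genes, without Pdia6.
Hsp90b1: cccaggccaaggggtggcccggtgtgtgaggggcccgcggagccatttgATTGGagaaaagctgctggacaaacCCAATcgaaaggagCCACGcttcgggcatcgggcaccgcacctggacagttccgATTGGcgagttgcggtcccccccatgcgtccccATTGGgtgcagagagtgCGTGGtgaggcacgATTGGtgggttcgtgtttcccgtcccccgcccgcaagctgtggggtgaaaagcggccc
Selenos: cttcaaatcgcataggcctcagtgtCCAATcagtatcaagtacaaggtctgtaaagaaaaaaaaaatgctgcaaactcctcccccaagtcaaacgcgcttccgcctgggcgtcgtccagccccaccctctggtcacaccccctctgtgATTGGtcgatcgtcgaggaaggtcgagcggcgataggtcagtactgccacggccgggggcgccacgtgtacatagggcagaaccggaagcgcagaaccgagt
Syvn1: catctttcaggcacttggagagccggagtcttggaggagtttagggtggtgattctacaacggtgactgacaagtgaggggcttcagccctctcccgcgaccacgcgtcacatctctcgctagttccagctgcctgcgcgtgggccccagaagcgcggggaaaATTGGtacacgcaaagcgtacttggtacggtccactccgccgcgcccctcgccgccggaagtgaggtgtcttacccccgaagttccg

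The ERSE was searched as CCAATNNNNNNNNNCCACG on both strands of the whole window, from 250 bases before to 50 bases after the start. Hsp90b1 held 2 matches, 1 on its own strand from base -176 to base -158 and 1 on the opposite strand from base -72 to base -54, counted from the start. It was the 1 window with at least 2 matches among 33469 windows, of which 22 (0.0657%) held any. Neither Selenos nor Syvn1 held a match, exact or with 1 of the 10 fixed letters off. A CCAAT, the box bound by the factor NF-Y and part of the ERSE, occurred 5 times in Hsp90b1, 2 times in Selenos and 1 time in Syvn1, and 37.5% of all windows held at least 1. None of the 3 windows held the unfolded protein response element TGACGTGG, present in 0.595% of windows, or the element ERSE-II (ATTGGNCCACG), present in 0.0508%. Selenos alone of the 3 held an E-box (CACGTG), found in 6.42% of windows. A match describes these letters only, and its absence says nothing of the factor.

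The exact ERSE was found in 7 of the 3609 measured genes that have a window, and their elements are given so that the values can be read beside them. They are written 5′ to 3′ with the fixed letters in capitals, on whichever strand matched.
Hsp90b1, own strand: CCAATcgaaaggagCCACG
Hsp90b1, opposite strand: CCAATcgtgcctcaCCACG
Hspa5: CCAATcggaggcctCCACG
Calr: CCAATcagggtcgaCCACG
Xbp1: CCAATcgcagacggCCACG
Hnrnpa3: CCAATagcgagtgcCCACG
Birc5: CCAATcccggaaggCCACG
Zfand2a: CCAATccagcgggtCCACG

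Of these 7 genes, 4 were at least 1.5-fold higher in the high phosphate library, against 7.07% of all measured genes with a window. Hsp90b1 is among the 4 by its choice, and Hnrnpa3 counts as measured through the high phosphate library alone. Without these, 2 of 5 were 1.5-fold higher and the median log2 ratio was 0.49, so nothing is read from the share. Besides Hsp90b1, the 4 higher genes included Hspa5, which encodes the ER HSP70 BiP, with 209.9 FPKM (control) and 344 FPKM (high phosphate), and Calr, the lectin chaperone calreticulin, with 664 and 1012 FPKM. The fourth was Hnrnpa3, an RNA-binding protein gene with near-identical copies in the genome, with 0.98 and 11.2 FPKM. Xbp1, the transcription factor that IRE1 activates, was listed at 39.4 and 52.9 FPKM (log2 ratio 0.42). Birc5, the mitotic survivin gene, had 35.4 and 50.1 FPKM. Zfand2a, an arsenite-inducible zinc finger gene, went the other way, with 37.5 and 23.7 FPKM (log2 ratio -0.64). The 74 measured genes with an ERSE at most 1 letter off, the exact matches included, had a median log2 ratio of 0.02 with 7 at least 1.5-fold higher. Of the 36 measured genes with TGACGTGG, 0 were 1.5-fold higher, and their median log2 ratio was 0.04. For ERSE-II it was 0 of 3, with a median of -0.02. Of the 24 measured ER folding genes with a window, 3 held the exact ERSE, so most folding genes lacked it. The search was made with the values known, and nothing is tested by it.

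**Figure D1:**
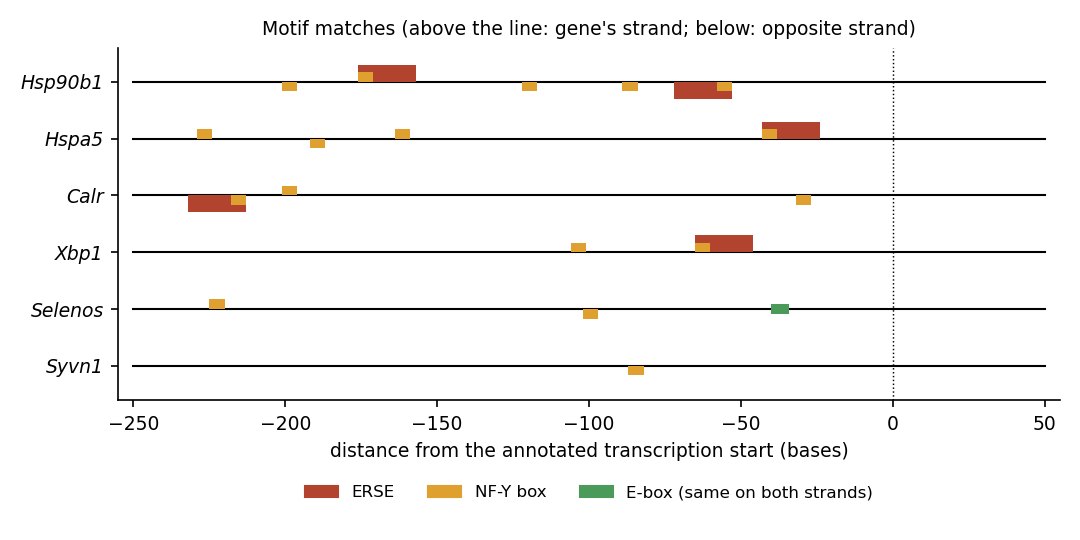
Motif matches by distance from the annotated start (bases) in the windows of 6 genes, drawn above the line on the gene's strand and below it on the opposite strand. Hsp90b1 shows 2 ERSE matches, Hspa5, Calr and Xbp1 show 1 each, and Selenos and Syvn1 show NF-Y boxes with no ERSE.

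Hsp90b1 (Entrez 362862) was listed at 374 FPKM in the control library and at 685 FPKM in the high phosphate library. Pdia6 (Entrez 286906) was listed at 245 FPKM (control) and 450.1 FPKM (high phosphate). Both folding genes were thus higher in high phosphate, and by nearly the same factor: the listed FPKM were 1.84-fold apart for Hsp90b1 and 1.83-fold apart for Pdia6, and both log2 ratios were 0.87. Selenos (Entrez 286900) had 90.1 FPKM (control) and 89.4 FPKM (high phosphate), a log2 ratio of -0.01. Syvn1 (Entrez 361712) had 9.66 and 9.47 FPKM, a log2 ratio of -0.03. Both degradation genes were therefore within 2% of level in the listed values, with differences of -0.699% for Selenos and -1.97% for Syvn1. The mean log2 ratio of the folding pair exceeded that of the degradation pair by 0.89.

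Counting a gene as higher from a 1.5-fold difference with the added 1, Hsp90b1 and Pdia6 passed, in a library pair where 7.21% of the measured genes did, and nothing is read from that share because the genes were chosen on this contrast. Neither reached 2-fold, which 1.76% of measured genes did. In the order of all 4366 log2 ratios, 113 genes lay above Hsp90b1 and 115 above Pdia6, so just 1 gene lay between them. Selenos had 2273 genes above it and Syvn1 had 2389, close to the middle of the order. With no replicates, it is not known which of these places would hold in another pair of cultures. In bulk RNA, more cells of a kind and more RNA per cell cannot be told apart.

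The order of the 4 levels was the same in both libraries, with Hsp90b1 highest, then Pdia6, Selenos and Syvn1. Hsp90b1 was the gene with rank 118 of the measured genes in the control and rank 88 in high phosphate, and Pdia6 went from rank 177 to rank 113. Selenos lay at ranks 482 and 517, and Syvn1 at ranks 2576 and 2604. Within each pair the proportion of the levels was kept: Hsp90b1 was listed at 1.52 times the level of Pdia6 in either library, and Selenos at 9.32 times the level of Syvn1 in the control and 9.44 times in high phosphate. Between the pairs it was not. Hsp90b1 was listed at 4.15 times the level of Selenos in the control and at 7.66 times in high phosphate. For Pdia6 over Syvn1 the same comparison gave 25.4 and 47.5. Such proportions within a library do not depend on how the libraries are scaled to each other. The plot of the 4 levels shows the upper lines climbing in parallel above the flat lower lines.

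**Figure D2:**
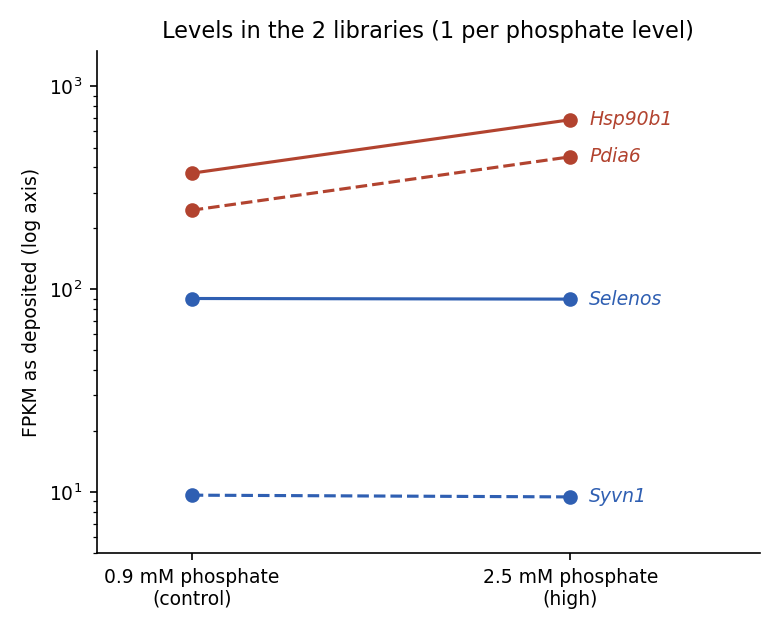
FPKM as deposited (log axis) of the 4 genes in the control and high phosphate libraries, 1 library each, with no error bars because there are no replicates. Hsp90b1 goes from 374 to 685 FPKM and Pdia6 from 245 to 450.1 FPKM, while Selenos stays near 90.1 FPKM and Syvn1 near 9.66 FPKM.

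The distance of each gene from 0 depended on how the libraries are scaled. Listed FPKM of all 8039 entries summed to 307622 (control) and 346857 (high phosphate). With these sums made equal, the log2 ratios were 0.70 for Hsp90b1, 0.70 for Pdia6, -0.18 for Selenos and -0.18 for Syvn1, while the median of all measured genes moved to -0.15. Relative to that median, the folding genes lay above and the degradation genes next to it, but this supports nothing. The scaling lowers every ratio by nearly the same amount, so places relative to the median could hardly change. Under the 6 other settings of pseudocount and scaling, that one included, Hsp90b1 and Pdia6 kept at least 1.5-fold in each. Selenos and Syvn1 lay below 0 in each, but this was fixed in advance. Every scaling made the high phosphate values smaller, and a pseudocount cannot change the sign of a ratio.

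**Figure D3:**
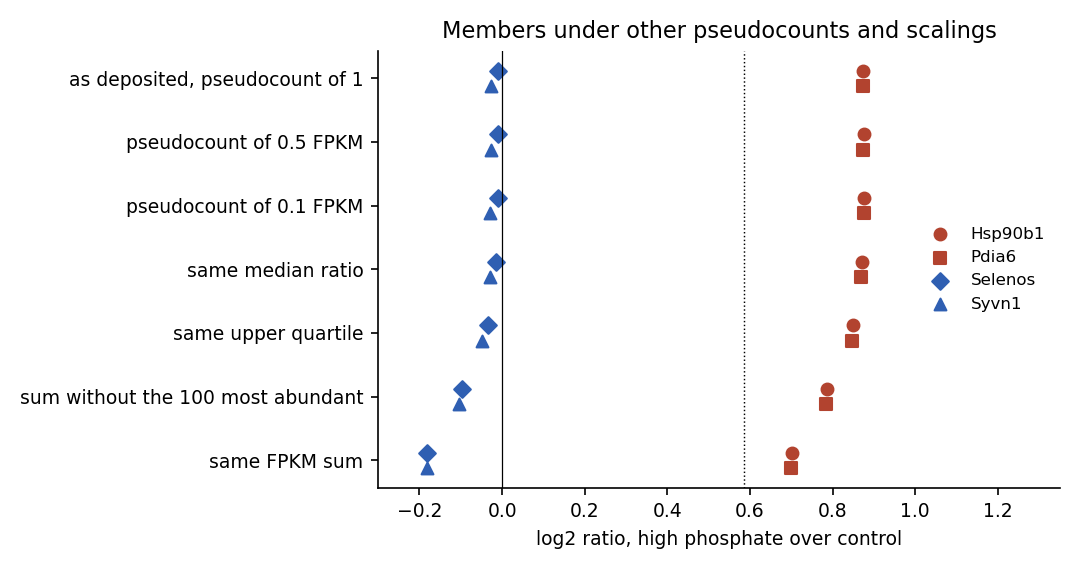
Log2 ratio of high phosphate over control for the 4 genes under each pseudocount and scaling of the libraries, with the dotted line at 1.5-fold. Hsp90b1 and Pdia6 lie between 0.70 and 0.88 in every setting shown, and Selenos and Syvn1 between -0.18 and -0.01.

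Around the folding pair, 66 genes of ER lumen folding were written down in 4 role lists, and 34 of them were listed in the files. Of these, 30 were measured, each with at least 1 FPKM in both libraries. In high phosphate 27 of the 30 were listed higher and 3 lower, with a median log2 ratio of 0.27 against 0.00 over all measured genes, of which 50.5% were higher. At least 1.5-fold higher were 7 of the 30 and none was 1.5-fold lower, where 7.21% and 3.37% of all measured genes were. Without Hsp90b1 and Pdia6, 5 of 28 were 1.5-fold higher and the median was 0.24. After rescaling to the same sum, 18 of the 30 were listed higher, with the median of all measured genes at -0.15. The share of all measured genes higher after this rescaling is not given here, so nothing is read from that count. On that scale 4 of the 30 were 1.5-fold higher, namely Pdia5, Hsp90b1, Pdia6 and Sdf2l1, where 4.47% of all measured genes were. A difference of 25% as deposited was reached by 13 of the 30 and by 17.4% of all measured genes. Summed over the 34 genes, the folding lists took 1.251% of the listed FPKM in the control and 1.56% in high phosphate.

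Among the HSP70 and HSP90 chaperones of the lumen and their helpers, all 11 measured genes were listed higher as deposited, with a median log2 ratio of 0.13 that turned to -0.04 after rescaling to the same sum. The list was uneven. Next to Hsp90b1 stood Sdf2l1, a partner of ER DnaJ proteins, with 61.3 FPKM (control) and 109.5 FPKM (high phosphate), and Hspa5 (log2 ratio 0.71). The other 8 had log2 ratios of 0.30 or less. Of the canopy proteins, Cnpy3, a cochaperone of GRP94 for Toll-like receptors, was listed at 58.9 and 72.5 FPKM, and Cnpy2 at 108.7 and 114.6 FPKM. Manf, a secreted ER stress protein that binds BiP, had 118.8 and 139.8 FPKM. The DnaJ cochaperone Dnajb11 had 94.2 and 99.8 FPKM, and Sdf2, the paralog of Sdf2l1, was nearly level at 69.1 and 69.6 FPKM. Dnajb9, another DnaJ cochaperone and a known target of XBP1, was listed at 0 (control) and 0.60 FPKM (high phosphate), too low to compare. Hyou1, Dnajc3 and Creld2 were not analysed here.

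Of the disulfide isomerases and thiol oxidases 13 genes were measured, 12 of them listed higher, with a median log2 ratio of 0.36, and 0.19 after rescaling to the same sum. Pdia5, an isomerase of the same family as Pdia6, had the highest ratio of the list, with 7.13 FPKM (control) and 15.1 FPKM (high phosphate) (log2 ratio 0.98). Pdia3, the isomerase that serves glycoproteins with the lectin chaperones and the most abundant of the list, had 342 and 512 FPKM (log2 ratio 0.58), just under the 1.5-fold rule. Vkorc1, the vitamin K epoxide reductase, had 60.6 and 88.6 FPKM. Lowest were Erp29, a chaperone without the active thiols, with 120.0 and 117.6 FPKM (log2 ratio -0.03), then the peroxidase Gpx8 with 242 and 255 FPKM and the membrane thioredoxin Tmx4 with 18.4 and 19.9 FPKM. Erp44, which returns escaped oxidases to the ER, was listed at 50.3 and 60.2 FPKM. P4hb, Pdia4 and Ero1a were not analysed here.

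The remaining folding lists held few genes. Calr stood beside Calr3, its testis paralog, at 1.69 and 1.03 FPKM, and the membrane lectin Canx was not analysed here. Of 4 measured prolyl isomerases, which turn proline bonds in collagens and other clients, Fkbp9 had 83.8 and 129.5 FPKM (log2 ratio 0.62), Fkbp10 95.4 and 132.9 FPKM, Ppic 78.8 and 96.8 FPKM, and Fkbp2 7.14 and 6.5 FPKM (log2 ratio -0.12). Calr and Fkbp9 passed 1.5-fold as deposited but not with the sums made equal, where they had 0.43 and 0.45, and the same was true of Hspa5 with 0.54.

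Hsp90b1 and Pdia6 are abundant, and so are many folding genes. Among the 453 genes whose mean reached 100 FPKM, 7.51% were at least 1.5-fold higher and the median log2 ratio was 0.15. Of the 15 folding genes in that range, 5 were 1.5-fold higher and the median was 0.42, but Hsp90b1 and Pdia6 are among them by their choice. Without this pair, 3 of 13 were 1.5-fold higher, namely Hspa5, Calr and Fkbp9, and the median was 0.36. This range was set after the values were seen.

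Around the degradation pair, 73 ERAD genes were written down, 32 were listed and 27 measured, 26 of them with at least 1 FPKM in both libraries. In high phosphate 10 of the 27 were listed higher and 17 lower, where 50.5% of all measured genes were higher. The median log2 ratio of the 27 was -0.05, against 0.00 over all measured genes. Of the 27, 1 was at least 1.5-fold higher and 1 at least 1.5-fold lower, where 7.21% and 3.37% of all measured genes were, so the count of lower genes was near the background. After rescaling to the same sum 5 of the 27 were listed higher. That scaling lowers ratios by construction and moved the median of all measured genes to -0.15, so no decline is read from this count. Without Selenos and Syvn1, 10 of 25 were listed higher as deposited. The summed share of the 32 genes was 0.292% of the listed FPKM in the control and 0.257% in high phosphate.

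In the HRD1 complex and the lectins and mannosidases that feed it, 11 genes were measured, 4 higher and 7 lower, with a median log2 ratio of -0.03 that turned to 0.10 when a mean of 10 FPKM was required. Erlec1, a lectin that carries trimmed glycoproteins to HRD1, stood apart from the rest with 21.2 FPKM (control) and 34.8 FPKM (high phosphate) (log2 ratio 0.69), and 0.52 after rescaling to the same sum. Derl1, a channel protein that binds selenoprotein S, had 46.4 and 57.6 FPKM (log2 ratio 0.31), while its paralog Derl2 had 9.66 and 8.5 FPKM (log2 ratio -0.17). Selenok, another selenoprotein of the ER membrane that binds VCP, had 49.1 and 58.2 FPKM (log2 ratio 0.24). Vcp, the ATPase that pulls proteins out of the membrane and the most abundant of the list, had 158 and 144.7 FPKM, and its cofactor Ufd1 35.1 and 32.1 FPKM. Ubxn8, a membrane anchor for VCP, was lowest with 3.21 and 2.1 FPKM (log2 ratio -0.44). The HRD1 partners Sel1l, Herpud1, Os9, Edem1, Derl3 and Ube2j1 were not analysed here, so the complex was seen in part.

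Of the other ERAD genes 16 were measured, 6 higher and 10 lower, with a median log2 ratio of -0.07. The conjugating enzyme Ube2g1 was highest with 17.0 FPKM (control) and 21.4 FPKM (high phosphate) (log2 ratio 0.32), followed by Erlin1 and Ubl4a with log2 ratios of 0.12 and 0.10. Rad23b, a shuttle to the proteasome, was listed at 96.8 and 88.0 FPKM. The ubiquilins Ubqln2 and Ubqln4 had log2 ratios of -0.32 and -0.20.

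**Figure D4:**
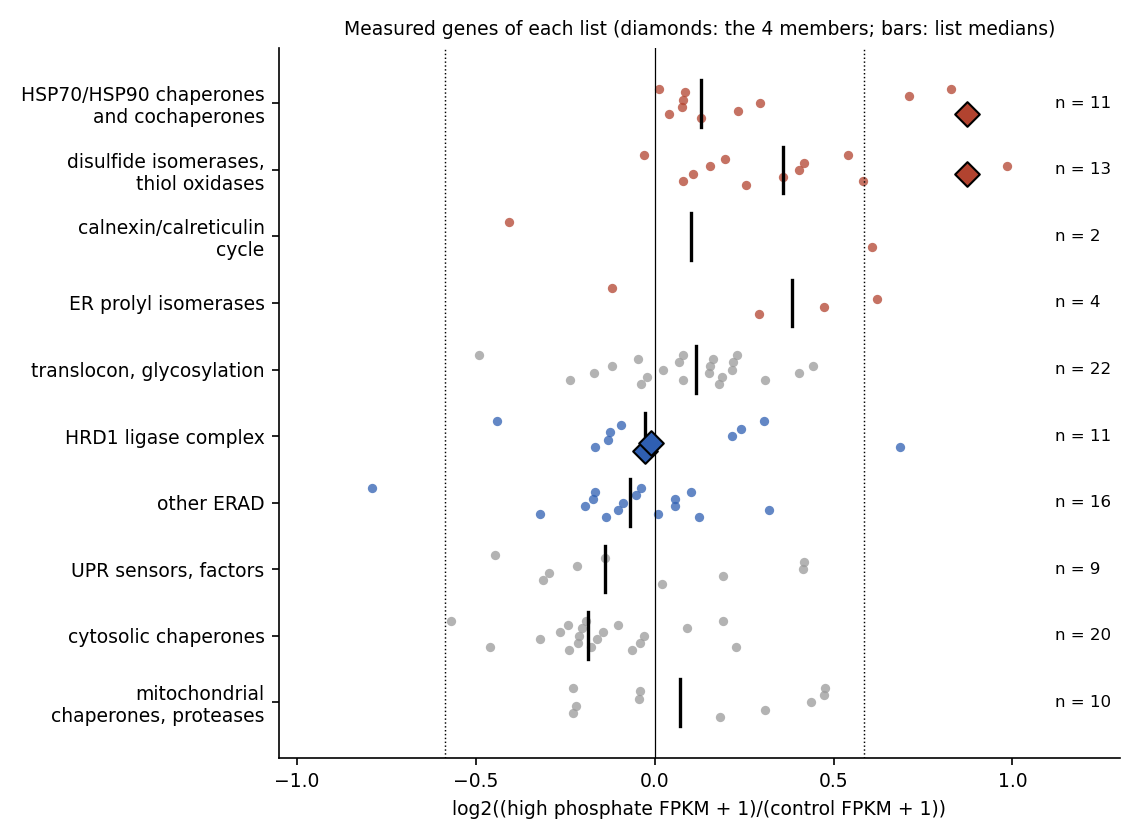
Log2 ratio of each measured gene by role list (x axis), with bars at list medians, diamonds for the 4 genes described and dotted lines at 1.5-fold. The folding lists lie mostly to the right of 0 as deposited, with Hsp90b1 and Pdia6 near 0.87, and the ERAD lists lie around 0, with Erlec1 at 0.69.

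Genes of unfolded protein response signalling, regulators and effectors alike, were set beside all measured genes. A comparison with Hsp90b1 and Pdia6 would say nothing, since they were chosen for their difference. Of 9 measured signalling genes, 4 were higher and 5 lower, where 50.5% of all measured genes were higher. Their median log2 ratio was -0.14, against 0.00 over all measured genes. None passed 1.5-fold, where 7.21% of all measured genes did, and with 9 genes nothing is read from this count. Xbp1 and Tmbim6, a membrane protein that restrains cell death, were highest with log2 ratios of 0.42 each. Tmbim6 was low, with 1.13 FPKM (control) and 1.84 FPKM (high phosphate), and these values are 1.63-fold apart without the added 1. Chac1, a glutathione-degrading enzyme downstream of ATF4, had a log2 ratio of 0.19. Atf4, the transcription factor made when PERK is active, was level at 290 and 294 FPKM. Ppp1r15a (GADD34), which reverses the PERK signal, was listed at 26.2 FPKM (control) and 18.9 FPKM (high phosphate) (log2 ratio -0.45), while the death effector Bax and the ER-anchored transcription factor Creb3 had log2 ratios of -0.31 and -0.30. Ddit3 (CHOP), a death-linked target of ATF4, was under 1 FPKM in both libraries, at 0.72 and 0.43 FPKM. The sensors Ern1, Eif2ak3 and Atf6 were not analysed here, and splicing of the Xbp1 transcript, through which IRE1 acts, cannot be read from gene-level FPKM.

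Genes of the entry route into the ER gave a middle value. Of 22 measured genes of the translocon, the signal peptidase and the glycosylation enzymes, 15 were listed higher and none passed 1.5-fold. Over all measured genes 50.5% were higher and 7.21% passed 1.5-fold. The median log2 ratio of the 22 was 0.12 and turned to -0.06 after rescaling to the same sum. Ost4, a small subunit of the sugar transferase, had 262 FPKM (control) and 356 FPKM (high phosphate), Sec61b, a subunit of the protein channel, 193 and 255 FPKM, and Dad1 148 and 183 FPKM. At the other end Emc6, of the membrane insertase, had 7.17 and 4.81 FPKM, and the catalytic subunit Stt3a 46.1 and 40.9 FPKM. The most abundant, Sec61g, had 338 and 385 FPKM.

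**Figure D5:**
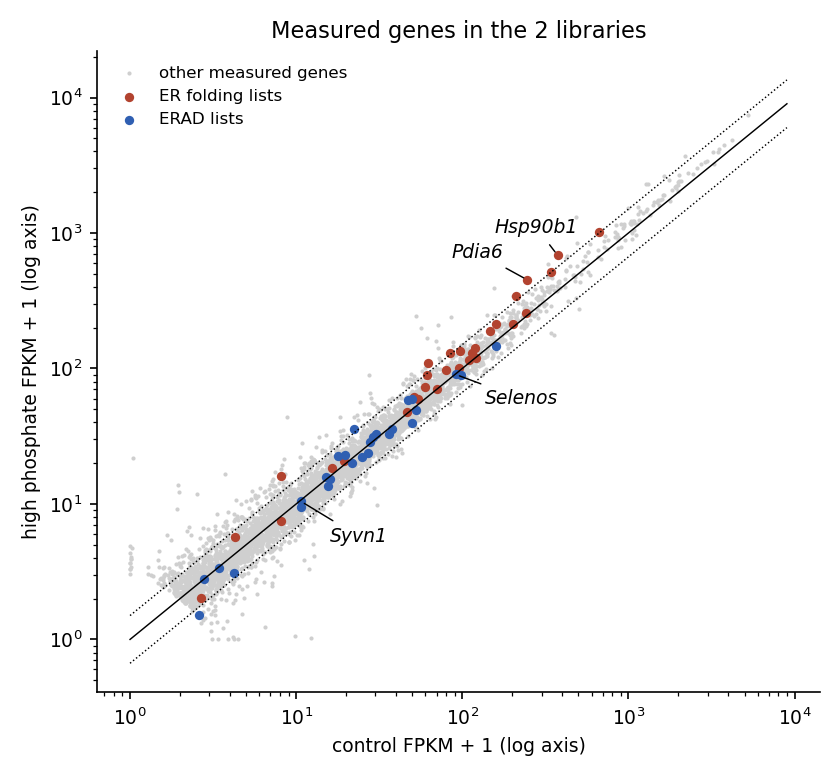
FPKM + 1 of the 4366 measured genes in control (x) and high phosphate (y), both on log axes, with the ER folding lists in red, the ERAD lists in blue, the solid line at equality and the dotted lines at 1.5-fold. Hsp90b1 and Pdia6 lie above the upper dotted line among the abundant genes, and Selenos and Syvn1 lie on the line of equality.

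Within the HSP90 family, Hsp90ab1, the constitutive cytosolic form, was listed at 869 FPKM (control) and 926 FPKM (high phosphate) (log2 ratio 0.09), and -0.08 after rescaling to the same sum, against 0.87 and 0.70 for Hsp90b1. The cytosolic Hsp90aa1 and the mitochondrial Trap1 were not analysed here.

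The genes most like each of the 4 were taken as the 3 with the smallest distance in log2(FPKM + 1) over the 2 libraries. With 2 points a gene, such likeness says little. For Hsp90b1 they were Csrp1, Ifitm3 and Sparc at distances of 0.18, 0.19 and 0.29 log2 units. Sparc, a secreted matrix glycoprotein, was listed at 326 and 592 FPKM. For Pdia6 they were Ifi27l2b, B2m and Ndufb4 at 0.26, 0.30 and 0.32, and all 3 had a lower log2 ratio than Pdia6, from 0.44 to 0.56. For Selenos they were Cox14, Tmem50a and Stub1 at 0.02, 0.03 and 0.04. For Syvn1 they were Serinc2, U2af1l4 and Cpped1 at 0.03, 0.04 and 0.04. The genes most like the degradation pair were thus nearer to it than those most like the folding pair were to Hsp90b1 and Pdia6.

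Neighbouring genes were looked up in the RefSeq table of GRCr8, used for gene order only. The genes on either side of Selenos, Snrpa1 and Chsy1, had 46.1 and 53.8 FPKM, and 28.3 and 40.1 FPKM, so Selenos was the lowest of the 3 in ratio. Beside Pdia6, Atp6v1c2 had 1.28 and 1.02 FPKM and Kcnf1 under 0.1 FPKM in both libraries. The annotated span of Syvn1 overlaps that of Mrpl49, which was not analysed here, and since the sources used here give no strand settings, reads from the overlap cannot be assigned for certain.

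Markers of other cell types were also listed higher beside the folding genes. All 5 measured fibroblast markers were listed higher, 4 of them by 1.5-fold or more, where 50.5% and 7.21% of all measured genes were. Col1a1, at 0.79 FPKM (control) and 1.8 FPKM (high phosphate), counts as measured through the high phosphate library alone, and of the 4 markers with at least 1 FPKM in both libraries 3 were 1.5-fold higher. With the sums made equal, Lum and Col3a1 passed 1.5-fold with log2 ratios of 0.63 and 0.61. Col1a1 (0.54), Dcn (0.50) and Thy1 (0.27) did not pass on that scale. The 7 listed fibroblast markers summed to 730.0 FPKM (control) and 1178 FPKM (high phosphate), mostly Col3a1, a secreted collagen that is itself an ER client, with Pdgfra at 0 in both. Of 4 measured smooth muscle markers all were listed higher and 1, Acta2, passed 1.5-fold, where 50.5% and 7.21% of all measured genes did. Acta2 had a log2 ratio of 0.69, and 0.51 with the sums made equal. The 5 listed smooth muscle markers summed to 2550.4 and 3877 FPKM, with Myh11 at 0.60 and 0.61 FPKM. Of 6 listed skeletal myoblast markers Des and Myod1 were measured, and Myod1, the myogenic master factor, was lower with 6.11 and 1.59 FPKM. The 4 listed endothelial markers were all under 1 FPKM in both libraries, and of the 4 listed macrophage markers Cd68 alone passed it, at 1.06 and 1.38 FPKM, with Ptprc at 0. Their part in the difference of Hsp90b1 and Pdia6 was not tested.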

How the data were processed

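RNA of 1 control and 1 high phosphate H9c2 culture was sequenced, and per the file headers the authors deposited FPKM, rounded to 2 decimals. The build Rnor_6.0 and the tools Cuffdiff, Cufflinks 2.2.1, TopHat2 2.1.1 and bcl2fastq are named, per the submitters' processing notes. The sources used here do not give the role of each tool, the annotation, the strand setting or the handling of reads with several matches. A low FPKM from isoform-level estimation may be a failed estimate. Depth is unknown, so no counting interval is given.

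Of 8039 entries, 236 without a usable identifier were left out; 7746 of 7803 matched a symbol in a RefSeq table (GRCr8, used for names and gene order). The log2 ratio used FPKM as deposited with a pseudocount of 1 for genes whose mean reached 1 FPKM, and the call rule was 1.5-fold. With 1 library per group there was no test. Some listed genes are counted but not reported here by name. The 4 genes, the gene lists and the call rule were chosen with earlier results of these data known, and the promoter motifs, the range from 100 FPKM, the lists without the 4 genes and the counts from 1 FPKM in both libraries after the values were seen. Named genes were mostly the 4, fixed partners, up to 3 highest and 3 lowest and the most abundant of each list, and the nearest 3 in level. Genes with the ERSE, cell type markers, genome neighbours and some other list members, such as Hspa8, Ufd1 and Txnrd1, were named outside this rule. The ratio formula was checked on made-up values without noise, and the motif search on made-up sequences with a planted element. These checks cover the arithmetic and the search, not the data. Alternatives were other pseudocounts, scalings, filters and fold thresholds. Python 3.11.15, numpy 2.4.6, pandas 2.3.3 and matplotlib 3.10.9 were used.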

Additional observations from a re-analysis of the deposited data

How the results depend on the processing

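No paired analysis was possible because each phosphate level had 1 library, and for the same reason no library could be left out. Rescaling both libraries to the same FPKM sum gave log2 ratios of 0.70 for Hsp90b1, 0.70 for Pdia6, -0.18 for Selenos and -0.18 for Syvn1, with 4 folding genes and 0 ERAD genes at least 1.5-fold higher and medians of 0.10 for folding and -0.21 for ERAD genes; this scaling lowers every ratio by construction, and the median of all measured genes moved to -0.15. The count of 7 folding genes became 0 at 2-fold and 13 at a difference of 25%, which 1.76% and 17.4% of all measured genes reached. The count of 1 ERAD gene became 0 at 2-fold, 2 without the filter on low values (the added gene, Ube4a, was listed at 0 and 0.64 FPKM) and 0 from a mean of 100 FPKM, where 1 ERAD gene was left. From a mean of 100 FPKM the folding median was 0.42. The excess of the folding pair over the degradation pair moved by less than 0.1 under each pseudocount and scaling. A scaling of the libraries nearly cancels in this difference, and the genes were chosen on it, so this supports nothing. From a mean of 10 FPKM the median of the HRD1 list turned from -0.03 to 0.10. No value called 1.5-fold changed sign.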

Other observations

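Selenos was also read against its other family, the selenoproteins, enzymes and membrane proteins that carry selenocysteine. Of 8 measured members 2 were listed higher and 6 lower with high phosphate, where 50.5% of all measured genes were higher. Their median log2 ratio was -0.28, and Selenos followed the higher pair in order. The glutathione peroxidase Gpx4, which protects membrane lipids, was listed at 4.78 FPKM (control) and 1.16 FPKM (high phosphate), and the mitochondrial thioredoxin reductase Txnrd2 at 9.57 and 5.9 FPKM. Txnrd1, its cytosolic counterpart, had 66.8 and 53.4 FPKM, while Selenok and Gpx1 were that higher pair, with log2 ratios of 0.24 and 0.11. Without the filter on low values, and from a mean of 10 FPKM, the list median was -0.01.

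Chaperones of other compartments gave other values than those of the ER lumen. Of 20 measured cytosolic chaperones 3 were listed higher and 17 lower, with a median log2 ratio of -0.19, among them the constitutive Hspa8 at 899 and 787 FPKM and the chaperonin subunit Tcp1 at 90.7 and 65.7 FPKM. Of 10 mitochondrial chaperones and proteases 5 were listed higher, with a median of 0.07 that turned to -0.09 after rescaling to the same sum and to -0.04 from a mean of 5 FPKM or 10 FPKM; the chaperonin partner Hspe1 had 510 and 435 FPKM, and Hspd1 6.63 and 9.6 FPKM. Of 3 measured ER-phagy genes, which mark parts of the ER for lysosomes, all were listed lower, from 5.11 and 2.15 FPKM for Tex264 to 10.5 and 9.56 FPKM for Retreg3. The differences between these groups were not tested.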
